A study of Mus musculus with 4 samples.

Results

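The genes described here are the TAM receptors and the proteins that link them, or related receptors, to dying cells. The cells were labelled as liver macrophages and sorted for a fluorescent reporter. The 7 members were taken by gene name from the 23337 names in the deposited tables: the receptor tyrosine kinases Axl, Mertk and Tyro3, their ligands Gas6 and Pros1, the bridging protein Mfge8 and the endocytic receptor Lrp1. Each had 1 row per library. RNA came from 4 libraries, 2 of YFP+ and 2 of YFP- cells, which the submitters call Kupffer cells, that is, macrophages resident in the liver. All came from Lyz2cre-RosaYFP mice of 6 to 8 weeks and both sexes, in which Cre made from the lysozyme locus Lyz2 permanently switches on yellow fluorescent protein at Rosa. A YFP+ cell has therefore made Cre itself or descends from a cell that did, while a YFP- cell carries the same alleles without recombination at the reporter. In each group 1 title begins with M and 1 with FM, and the libraries are named here by group and title start. The sorting gate for Kupffer cells, and whether libraries came from separate animals, are unstated in the labels, so p-values measure only the spread between these libraries, which may be technical.

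Dying cells display phosphatidylserine on their surface. Gas6 and Pros1, vitamin K-dependent plasma proteins, bind this lipid with one end and a TAM receptor with the other, which switches on uptake and dampens inflammatory signalling. Gas6 activates Axl, Mertk and Tyro3, while Pros1 (protein S, also an anticoagulant cofactor made largely by hepatocytes) acts on Mertk and Tyro3. Mfge8 is a secreted bridge from phosphatidylserine to alpha-v integrins. Lrp1, a large member of the LDL receptor family, takes up many ligands and is held to bind calreticulin and complement C1q on dying cells. In mice, Axl and Mertk are both known on Kupffer cells, and Mertk on microglia, the macrophages of the brain.

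The 7 genes lie on 5 chromosomes in GRCm38 as the files give them. Axl (25756500 to 25788733) and Mfge8 (79133768 to 79149060) are on the minus strand of chromosome 7. Mertk (128698997 to 128802188) and Tyro3 (119799514 to 119818103) are on the plus strand of chromosome 2. Gas6 is on chromosome 8 (13465374 to 13494535, minus), Pros1 on chromosome 16 (62854334 to 62929340, plus) and Lrp1 on chromosome 10 (127538158 to 127621148, minus). In GENCODE M21 the longest coding transcript runs from 2125 bases in 10 exons for Mfge8 to 14888 bases in 89 exons for Lrp1. There the opposite-strand gene Tmem255b overlaps Gas6, and antisense transcripts overlap Mertk and Lrp1. With strandedness of the libraries unknown, reads of such pairs cannot be told apart. Tmem255b, under its older symbol Fam70b, was listed at 0 in both YFP+ libraries and at 0.549 and 0.666 TPM in the YFP- M and YFP- FM libraries.

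Promoters of the 3 bridging genes, which had the lowest YFP+ levels relative to YFP-, are shown with that of Axl. Among the tested members, the mean deposited level of Axl differed least on the log2 scale. Each is the last 150 bases before the RefSeq transcription start (GRCm38.p6): chr8:13494536-13494685 for Gas6, chr16:62854157-62854306 for Pros1, chr7:79149061-79149210 for Mfge8 and chr7:25788734-25788883 for Axl, each on its gene's strand. Capitals mark the GC box (GGGCGG) and the PU.1/ETS core (GAGGAAG) on either strand, and overlapping matches run together.
Gas6: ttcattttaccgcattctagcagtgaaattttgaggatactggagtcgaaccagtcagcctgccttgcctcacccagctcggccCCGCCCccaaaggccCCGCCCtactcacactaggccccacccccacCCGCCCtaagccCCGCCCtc
Pros1: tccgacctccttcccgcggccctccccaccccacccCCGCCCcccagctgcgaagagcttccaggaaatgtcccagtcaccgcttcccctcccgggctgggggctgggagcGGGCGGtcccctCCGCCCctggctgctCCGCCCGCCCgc
Mfge8: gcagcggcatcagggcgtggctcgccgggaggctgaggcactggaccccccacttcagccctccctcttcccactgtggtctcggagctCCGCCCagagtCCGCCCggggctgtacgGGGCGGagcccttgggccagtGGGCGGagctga
Axl: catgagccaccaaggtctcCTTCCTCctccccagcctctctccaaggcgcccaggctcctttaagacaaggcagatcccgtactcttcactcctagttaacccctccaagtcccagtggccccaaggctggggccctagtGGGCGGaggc

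Promoters of all 7 members matched by symbol in the RefSeq table. Over the 250 bases before the start, a GC box stood in all 7 members and in 32.9% of 27025 promoters of the same length. All 7 were also richer in G and C than the median promoter (52%), from 54.8% for Gas6 to 73.2% for Tyro3. The part of base content in the GC box matches was not tested. Gas6 had 4 matches, Pros1 5, Mfge8 4, Mertk 3, Tyro3 3, Axl 1 and Lrp1 1. The PU.1/ETS core, of the kind bound by the macrophage factor PU.1, matched Axl 131 bases before its start and no other member, against 10.4% of all promoters. The RBPJ core (TGGGAA) matched Mfge8 and Lrp1, against 21.5% of all promoters. The AP-1 site (TGANTCA), the E-box (CACGTG) and the cAMP response element (TGACGTCA) matched none of the 7, against 6.87%, 6.05% and 1.62%. GC boxes thus stood in members called in the expression test and in members not called.

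TPM, a length-corrected share scaled to a sum of 1000000 in each library, comes without the reads behind it, and the only measure of depth is mean coverage per base. A level of 1 FPKM corresponded to a coverage of 4.81 and 2.60 in the YFP+ M and FM libraries, and 9.19 and 2.59 in the YFP- M and FM libraries. The YFP+ libraries were dominated by fewer genes: 54.0% and 66.1% of all TPM lay in the 100 most abundant genes, against 40.9% and 29.7% in the YFP- libraries. Kupffer cell markers were detected in all 4 libraries, but in both YFP- libraries the summed TPM of microglia markers exceeded that of Kupffer cell markers, which goes against their label as liver macrophages and touches every comparison made here. Each log2 fold change given here sets YFP+ over YFP- on the scale of log2(TPM + 1) and was tested with limma-trend, with Benjamini-Hochberg adjustment over all 12251 tested genes and a threshold of 0.05. Its median over those genes was -1.73, and the members are therefore also given relative to that median.

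The 3 bridging genes fell in YFP+ libraries, the receptors Axl and Lrp1 were not called in either direction, and Mertk lay between. Axl, a receptor for Gas6 but not for Pros1, had 483.8 and 132 TPM in YFP+ libraries (M, then FM), against 109.7 and 480.4 TPM in YFP- libraries. The groups overlapped fully, and the high and the low library of each group had opposite title starts. Its mean was 308 ± 248 TPM in YFP+ and 295.0 ± 262 TPM in YFP- libraries (SD, n = 2 each). The log2 fold change was 0.14 (SE 0.86, 95% interval -1.55 to 1.83, adjusted p = 0.892). Here and for the other members the SE and interval come from the spread typical of tested genes of that level, not from the gene's own.

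Mertk, the receptor chiefly used by resting macrophages to take up dying cells, had 115 and 36.9 TPM in YFP+ libraries, against 143 and 472.5 TPM in YFP- libraries. Both YFP+ values were below both YFP- values, but the YFP+ minus YFP- difference was only -0.31 on the log2 scale between the M libraries, against -3.64 between the FM libraries. The log2 fold change was -1.98 (SE 0.92, interval -3.79 to -0.17) and did not pass (adjusted p = 0.0693), and relative to the median of all genes it was -0.25. Tyro3, the TAM receptor best known from the nervous system, was listed at 0 TPM in YFP+ M and stood at 0.0986 TPM in YFP+ FM, against 0.365 and 0.936 TPM in YFP- M and FM. No library reached 1 TPM, so Tyro3 was not tested, and the other 6 members were.

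**Figure D1:**
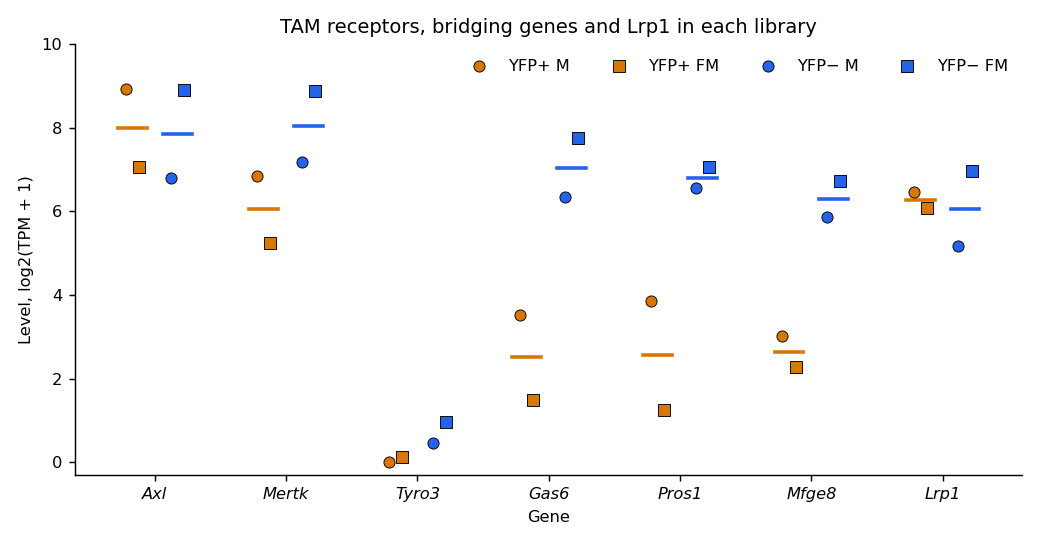
Level of each gene as log2(TPM + 1) in the 4 libraries, with YFP+ libraries in orange left of YFP- libraries in blue, circles for title start M, squares for FM and bars at the group mean of the 6 tested genes. Gas6, Pros1 and Mfge8 sit between 1.40 and 13.4 TPM in YFP+ libraries and between 57.5 and 213 TPM in YFP- libraries, while Axl and Lrp1 overlap between groups.

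Gas6, the shared ligand of all 3 TAM receptors, had 10.6 and 1.80 TPM in YFP+ libraries, against 80.6 and 213 TPM in YFP- libraries. The groups did not overlap, and the higher YFP+ value was that of the M library. The log2 fold change was -4.54 (SE 1.08, adjusted p = 0.000598). Its TPM was 7.64-fold lower in YFP+ M than in YFP- M and 118-fold lower in YFP+ FM than in YFP- FM. Mean coverage of Gas6 was 34.2 and 3.79 reads per base in YFP+ M and FM, against 439 and 239 in YFP- M and FM. Pros1 had 13.4 and 1.40 TPM in YFP+ libraries, against 93.5 and 131 TPM in YFP- libraries (log2 fold change -4.25, SE 1.08, adjusted p = 0.00127). Its profile followed that of Gas6, with the YFP+ M library again above YFP+ FM and both far below the YFP- libraries.

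Mfge8 had 7.05 and 3.87 TPM in YFP+ libraries, against 57.5 and 104 TPM in YFP- libraries, and fell (log2 fold change -3.65, SE 1.10, adjusted p = 0.00605). Of the 3 bridging genes it varied least between the YFP+ libraries. Lrp1 had 87.4 and 66.7 TPM in YFP+ libraries, against 34.9 and 123 TPM in YFP- libraries. Both YFP+ values lay between the YFP- values, and the log2 fold change was 0.21 (SE 0.98, interval -1.71 to 2.14, adjusted p = 0.855). Relative to the median of all genes, Lrp1 was at 1.94 and Axl at 1.87, against -2.81 for Gas6, -2.52 for Pros1 and -1.92 for Mfge8.

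The order of the levels also differed between groups. In YFP+ libraries Axl led in both, Mertk and Lrp1 came next in either order, and Gas6, Pros1 and Mfge8 followed at 5.46 to 7.42 TPM on average without separating beyond their spread. In YFP- libraries Axl and Mertk led at 295.0 ± 262 and 308 ± 233 TPM and did not separate. Gas6 (147 ± 93.5), Pros1 (112 ± 26.7), Mfge8 (80.9 ± 33.1) and Lrp1 (79.0 ± 62.4) overlapped there. Among the 12251 tested genes Axl stood at the 97.7th and 95.7th percentile in the YFP+ M and FM libraries, against the 90.5th and 97.4th in the YFP- M and FM libraries. Gas6 stood at the 61.6th and 50.04th percentile in the same YFP+ libraries, against the 86.7th and 93.7th in the YFP- libraries.

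Of the 6 tested members 0 rose and 3 fell, where 0.522% of all tested genes rose and 39.5% fell. A fall as such is therefore no mark of these genes. Of the same 6 members 4 had both YFP+ values below both YFP- values, as had 79.7% of all tested genes, while the reverse held for 0 members and 2.5% of genes. The count depended on how libraries were scaled to each other. Under median-ratio scaling Gas6 (-2.48, adjusted p = 0.0118) and Pros1 (-2.24, adjusted p = 0.0223) fell, Lrp1 rose (2.48, adjusted p = 0.0258), Axl was at 2.43 (adjusted p = 0.0593) and Mfge8 at -1.50 (adjusted p = 0.0787). In that fit 5.62% of all genes rose and 5.9% fell. Under quantile normalization Gas6 fell (-2.91, adjusted p = 0.0436), Pros1 (-2.57, adjusted p = 0.0517) and Mfge8 (-1.86, adjusted p = 0.0977) did not pass, and 1.21% of all genes rose and 1.67% fell. With cyclic loess no member passed, the lowest adjusted p being 0.0576 for Gas6 (-2.73), where 0.531% of all genes rose and 0.327% fell. Across these scalings the log2 fold changes of Gas6, Pros1 and Mfge8 kept a negative sign and those of Axl and Lrp1 a positive one, whereas Mertk turned to 0.30 under median-ratio scaling.

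The calls also rested on having both YFP- libraries. Without YFP- M or without YFP- FM none of the 6 passed in limma, with Gas6 at -5.23 (adjusted p = 0.238) and -3.84 (adjusted p = 0.680), and 26 and 24 of all genes were called lower. At an unadjusted p under 0.05 these fits still had 935 and 481 genes. Without YFP+ FM, Pros1 did not pass (-2.95, adjusted p = 0.0502), and without YFP+ M, Mertk did (-2.78, adjusted p = 0.0192).

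**Figure D2:**
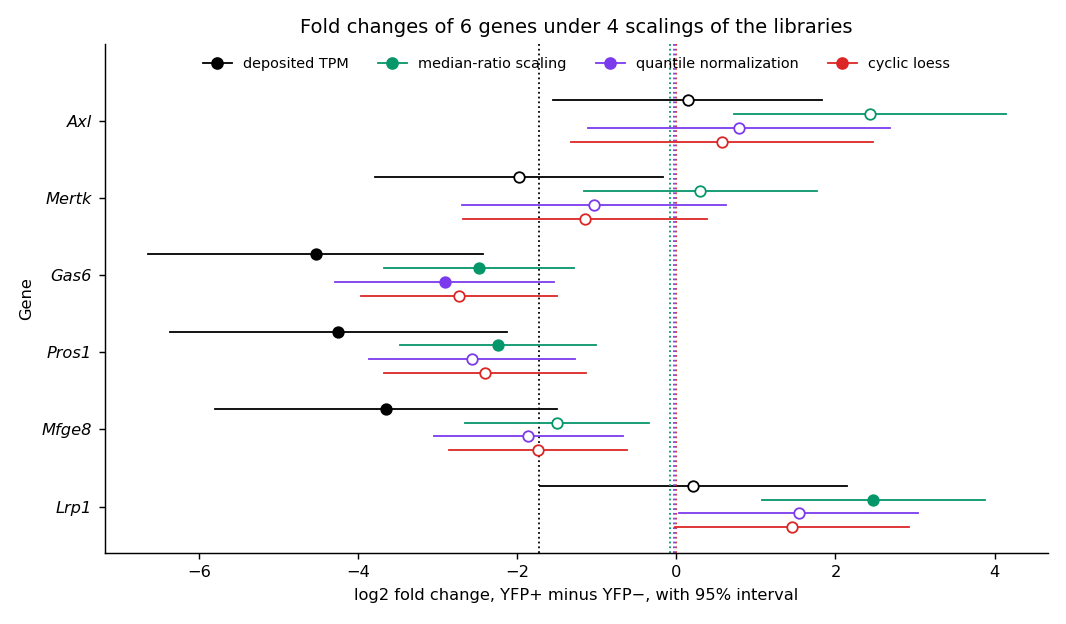
Log2 fold change (YFP+ minus YFP-, x axis) of the 6 tested genes under 4 scalings, with 95% intervals not adjusted for multiple tests. Filled points passed at adjusted p below 0.05, and dotted lines mark the median of all tested genes under each scaling, -1.73 on the deposited TPM and -0.03 under quantile normalization.

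Ratios between genes of the same library do not depend on multiplying a library by a constant, and those of a receptor over a ligand were higher in YFP+ libraries. Tyro3, listed at 0 in 1 library, was left out of them. Axl over Mertk was 4.22 and 3.59 in YFP+ M and FM, against 0.768 and 1.02 in YFP- M and FM. Axl over Gas6 was 45.8 and 73.5 in YFP+ libraries, against 1.36 and 2.26 in YFP- libraries, so the nearest values of the groups lay 20.3-fold apart. Mertk over Gas6 was 10.9 and 20.5 in YFP+ libraries, against 1.77 and 2.22 in YFP- libraries. Gas6 over Pros1, the 2 TAM ligands, was 0.786 and 1.29 in YFP+ libraries, against 0.862 and 1.62 in YFP- libraries, and overlapped.

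Another 7 ratios were chosen after the values were seen. Lrp1 over Mertk was 0.762 and 1.81 in YFP+ libraries, against 0.244 and 0.261 in YFP- libraries. Lrp1 over Axl overlapped, at 0.181 and 0.504 in YFP+ libraries, against 0.318 and 0.256 in YFP- libraries. In all, 8 of 11 ratios did not overlap between groups, and the 3 that did were Gas6 over Pros1, Lrp1 over Axl and Mfge8 over Gas6. Over all pairs of the 11274 tested genes above 0 TPM in every library, 62.5% of ratios did not overlap either, so the count is no mark of these genes. A ratio shows unequal change of its genes and not which of them changed. The ratios are given as values, with no test.

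**Figure D3:**
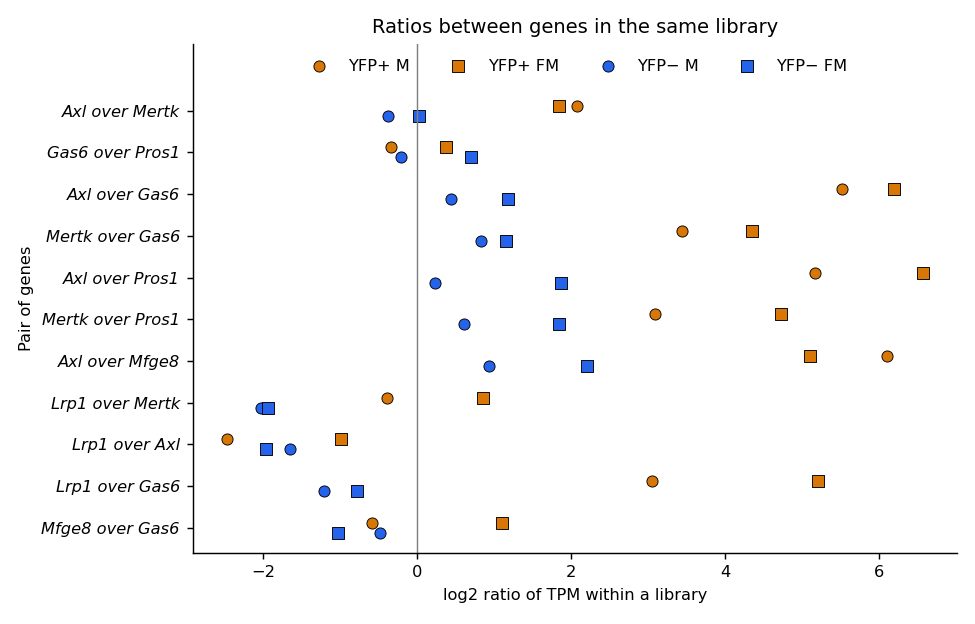
Log2 ratio of TPM between 2 genes of the same library (x axis) for 11 pairs, with YFP+ libraries in orange above YFP- libraries in blue and circles for M, squares for FM. Ratios of Axl, Mertk or Lrp1 over a TAM ligand lie to the right in YFP+ libraries, such as Axl over Gas6 at 5.52 and 6.20, against 0.44 and 1.17 in YFP- libraries.

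Markers of microglia and of several other cells were lower in YFP+ libraries, as the ligands were. The 10 microglia markers, all detected in every library, summed to 1113 and 100.2 TPM in YFP+ M and FM, against 18032 and 16898 TPM in YFP- M and FM. The 10 Kupffer cell markers summed to 42268 and 39849.7 TPM in YFP+ libraries, against 7007 and 12645 TPM in YFP- libraries. The 9 pan-macrophage markers summed to 16399.8 and 18137 TPM in YFP+ libraries, against 10495 and 14077 TPM in YFP- libraries, and Tyrobp made up 45.1% of their sum. The log2 fold changes of Tyrobp, Cd68, Aif1 and Lyz2 were positive. Those of Emr1, Csf1r, Ptprc, Itgam and Fcgr1 were negative, and of all these only Tyrobp and Itgam passed. Within YFP+ the M library exceeded FM in the microglia sum and in each member except Tyro3, as it did in 93.6% of all tested genes. The 12 endothelial markers, from cells that can express Gas6, Pros1 and Axl, summed to 382 and 197 TPM in YFP+ libraries, against 1469 and 1552 TPM in YFP- libraries. They did not move alike: Cdh5 (-0.05), Stab2 (-0.03), Clec4g (-0.81) and Oit3 (-2.33) did not pass, and the others fell. The 10 astrocyte markers summed to 36.0 and 5.73 TPM in YFP+ libraries, with Gfap, Aqp4, Fgfr3, Gjb6, Slc4a4 and Ntsr2 listed at 0 in YFP+ FM, against 235 and 213 TPM in YFP- libraries. The 10 hepatocyte markers, mostly Alb (63.8% of their sum), overlapped between groups. They summed to 303 and 763 TPM in YFP+ libraries, against 343 and 1388 TPM in YFP- libraries. The 10 stellate and mural markers summed to 8.95 and 2.62 TPM in YFP+ libraries, against 91.8 and 126 TPM in YFP- libraries, with Rgs5, Lrat and Reln listed at 0 in YFP+ FM. Oligodendrocyte markers, mostly Mbp (94.6% of their sum), were at 31.2 and 4.28 TPM in YFP+ libraries, against 655 and 682 TPM in YFP- libraries. Of these 8 markers 3 were listed at 0 in YFP+ M, 6 in YFP+ FM and 3 in YFP- FM. Neuron markers were at 4.63 and 1.73 TPM in YFP+ libraries, against 20.9 and 13.9 TPM in YFP- libraries. Of 8 neuron markers 1 was listed at 0 in YFP+ M and 7 in YFP+ FM, where Rbfox3 was the whole sum. Rbfox3 was higher in YFP+ libraries (3.57 and 1.73 TPM, against 1.12 and 1.25 TPM), without passing (adjusted p = 0.289). Dendritic cell markers summed to 170 and 176 TPM in YFP+ libraries, against 225 and 402.5 TPM in YFP- libraries. Batf3 made up most of the YFP+ sums, at 119 and 159 TPM against 54.3 TPM in each YFP- library (1.33, adjusted p = 0.236). The other markers of that list, Flt3, Zbtb46, Xcr1, Clec9a, Itgae, Cd209a and Ccr7, all fell. Lymphocyte markers summed to 308 and 53.2 TPM in YFP+ libraries, against 524 and 465 TPM in YFP- libraries. Neutrophil markers, mostly S100a9 (54.7% of their sum), summed to 1581 and 7059 TPM in YFP+ libraries, against 2145 and 3945 TPM in YFP- libraries. The sums overlapped between groups, and the highest was that of YFP+ FM. Only S100a8 and S100a9 were themselves highest there, whereas Mpo, Ngp, Camp, Retnlg and Csf3r were highest in a YFP- library. Csf3r fell (-2.99, adjusted p = 0.0122). The part of any of these cells in the members' levels was not tested, and in such bulk libraries fewer cells of a type and less RNA per cell cannot be told apart.

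**Figure D4:**
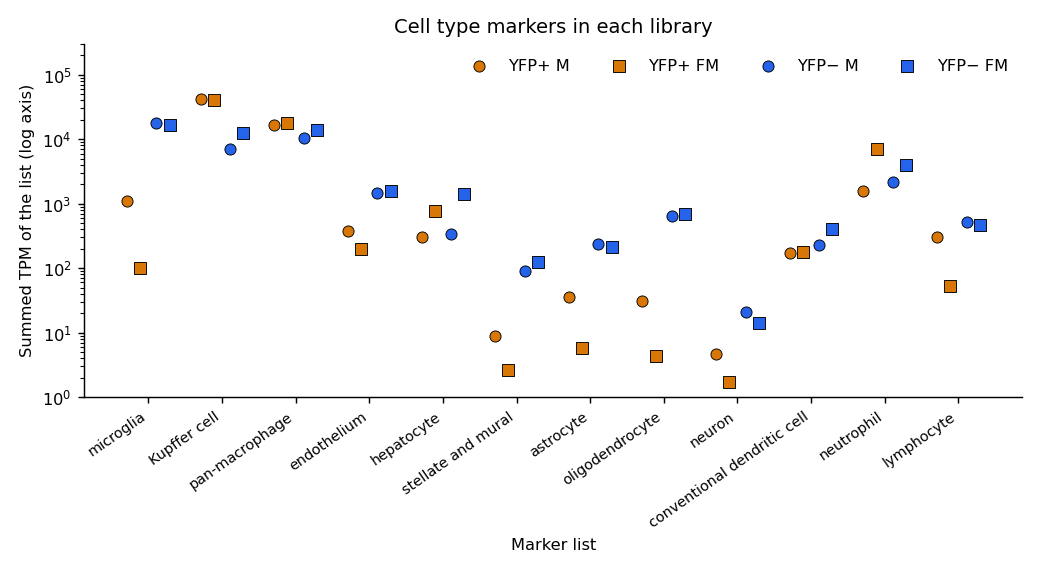
Summed TPM (log axis) of 12 marker lists in each library, with YFP+ libraries in orange left of YFP- libraries in blue and circles for M, squares for FM. Microglia markers sum to 1113 and 100.2 TPM in YFP+ libraries and to 18032 and 16898 TPM in YFP- libraries, and Kupffer cell markers lie higher in YFP+ libraries.

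Other genes of dying cell clearance did not move as 1 block. Of 86 such genes in 5 lists, 85 had a name in the files and 74 were tested, of which 7 rose and 22 fell, and their median log2 fold change was -0.93 against -1.73 for all genes. Under quantile normalization 2 were called higher and 2 lower, under median-ratio scaling 15 higher and 5 lower, and under loess none either way. The falls called under both of the first 2 were those of Havcr2 and Timp3, and the rises those of Il10 and Rxra. On the deposited TPM Il10 (2.14, adjusted p = 0.0535) and Rxra (1.16, adjusted p = 0.342) did not pass. Timd4 and Fcna are also on the Kupffer cell marker list, and Stab2 on the endothelial one. The counts of each list stand beside 0.522% of all tested genes that rose and 39.5% that fell, and a share of falls near 39.5% is no feature of a list. Among 14 tested apoptotic cell receptors and integrins 1 rose and 7 fell. Under quantile normalization and loess 0 rose, and 1 and 0 fell, while under median-ratio scaling 5 rose and 3 fell. The endotoxin co-receptor Cd14, which also tethers dying cells, rose to 2827 ± 85.3 TPM in YFP+ libraries, against 839 ± 516 TPM in YFP- libraries (adjusted p = 0.0239). Cd14 kept a positive sign but did not pass under quantile normalization (adjusted p = 0.366), median-ratio scaling (0.0545) or loess (0.342). The phosphatidylserine receptor Havcr2 (Tim-3) fell to 7.13 ± 7.74 TPM in YFP+ libraries, against 175 ± 46.4 TPM in YFP- libraries (adjusted p = 0.000268). The scavenger receptor Stab1 (-3.15), the C1q-linked receptor Cd93 (-3.61) and the Mfge8-binding integrin subunits Itgb3 (-3.42), Itgav (-2.58) and Itgb5 (-2.56) also fell, with Cd36 (-2.74). The phosphatidylserine receptors of resident macrophages and sinusoids Timd4 (1.01, adjusted p = 0.288) and Stab2 (-0.03, adjusted p = 0.978, positive under the other scalings) did not pass, but both rose under median-ratio scaling (3.31, adjusted p = 0.0258, and 2.18, adjusted p = 0.0405).

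Under quantile normalization and loess 0 of 12 tested bridging and opsonin genes rose or fell, and under median-ratio scaling 2 rose, Cfp among them. On the deposited TPM 5 rose and 1 fell. The complement regulator properdin, Cfp (3.40), the lectin Fcna (2.96) and the C1q chains C1qa (1.48), C1qb (1.46) and C1qc (1.46) rose, the C1q chains with a negative sign under loess. Thbs1, thrombospondin, fell to 4.62 ± 0.233 TPM in YFP+ libraries, against 69.3 ± 77.0 TPM in YFP- libraries (adjusted p = 0.0274). Calr, whose product Lrp1 binds on dying cells, was at 942 ± 489 TPM in YFP+ and 1034 ± 283 TPM in YFP- libraries (adjusted p = 0.808). Of 22 tested engulfment genes 0 rose and 7 fell, a share below that of all genes, among them the Rac activator subunit Elmo1 (-3.93), the adaptors Crk (-3.14) and Crkl (-2.82) and the cholesterol exporter Abca1 (-2.72). Lrpap1, the chaperone that Lrp1 needs to leave the endoplasmic reticulum, did not pass (-1.02, adjusted p = 0.356, positive under the other scalings).

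Of 10 tested genes for vitamin K-dependent carboxylation and receptor shedding 0 rose and 4 fell, about the share of all genes. The carboxylase Ggcx, which modifies Gas6 and Pros1, was at 3.05 ± 2.90 TPM in YFP+ and 20.1 ± 9.30 TPM in YFP- libraries (adjusted p = 0.0581), and the vitamin K reductase Vkorc1 at 107 ± 41.5 TPM in YFP+ and 162 ± 80.2 TPM in YFP- libraries (adjusted p = 0.608). The sheddases Adam10 (-3.28) and Adam9 (-2.96) and the protease inhibitor Timp3 (-4.12) fell, as did the quinone reductase Nqo1 (-1.31), listed at 0 in YFP+ FM. Adam17, which can cleave Mertk, missed the threshold (-2.41, adjusted p = 0.0502). Among 16 tested regulators and feedback genes 1 rose and 3 fell. The interferon response factor Irf7 rose (2.31), and the cytokine signalling suppressor Socs3 (-2.75), the interferon receptor chain Ifnar1 (-2.94), which partners TAM receptors, and Hif1a (-3.15) fell. Nr1h3, the oxysterol receptor LXR alpha known to induce Mertk, was at 350 ± 69.5 TPM in YFP+ and 122 ± 69.4 TPM in YFP- libraries (1.62, adjusted p = 0.117), and rose under median-ratio scaling (3.91, adjusted p = 0.00622).

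**Figure D5:**
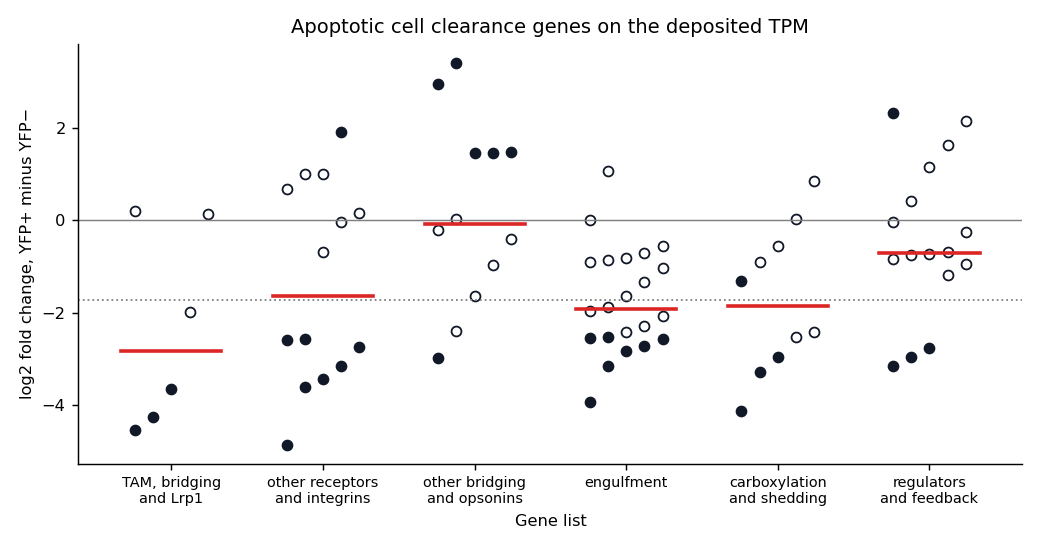
Log2 fold change (YFP+ minus YFP-, y axis, deposited TPM) of the tested members and of 5 lists of other clearance genes, with filled points past adjusted p below 0.05, red bars at list medians and the dotted line at the median of all tested genes, -1.73. The members split between 3 called falls, Mertk at -1.98 and Axl and Lrp1 near 0, and the other bridging and opsonin genes hold 5 of the 7 called rises.

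Profiles over the 4 libraries were compared after subtracting each gene's mean of log2(TPM + 1), by the root mean square difference. Among the members the closest pair was Gas6 and Pros1 (0.40), followed by Axl and Lrp1 (0.54), and the farthest was Gas6 and Lrp1 (2.45). Among 8227 other genes of at least 5 TPM on average, the nearest to Gas6 were Ugt1a7c and Lrrc3 (0.14 each), to Pros1 Slc29a3 (0.11) and Wls (0.14), and to Mfge8 Slc52a3 (0.04) and Fam176a (0.05). The nearest to Axl were Ube2m and St3gal5 (0.20 each), to Mertk Rftn1 and Cpt1a (0.04 each) and to Lrp1 Csf2rb (0.05) and Ehbp1l1 (0.08). With 4 libraries and 8227 candidates such closeness is a description only.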

How the data were processed

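RNA of 2 YFP+ and 2 YFP- libraries was measured, grouped by the genotype label. Per the file headers the authors deposited coverage (a mean signal per base), FPKM and TPM for each gene. The submitters' processing notes list HISAT with GRCm38 (mm10). The HISAT version and the program behind the tables: not given in the sources used here. Where 1 name had several rows their TPM were summed (166 of 23337 names, no member among them). Names reaching 1 TPM in 2 or more libraries entered a limma 3.58.1 model of log2(TPM + 1) under R 4.3.3 (mean-variance trend, Benjamini-Hochberg, threshold 0.05), which was tested on simulated data. Depth in reads is unknown, so no counting interval is given. In 98.8% of rows sharing a name with GENCODE M21 the spans overlapped, and promoters came from RefSeq.

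The members and lists were chosen with earlier results of these data known. Named are all members, up to 4 called genes per list and direction, 15 genes set by name and the 2 nearest profiles per member. Itgb5, C1qb, Il10, Rxra and the single pan-macrophage, endothelial, neuron, dendritic cell and neutrophil markers were added after their values were seen. Sums, ratios and plots were made with pandas 2.3.3, NumPy 2.4.6 and matplotlib 3.10.9 in Python 3.11.15. Alternatives were another pseudocount, 2 filters, 3 scalings, FPKM, single-row genes, the title start as a block and each library left out.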

Additional observations from a re-analysis of the deposited data

Results flagged for a closer look

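Axl and Lrp1 moved in opposite directions between the title starts. For Axl the YFP+ minus YFP- difference in log2(TPM + 1) was 2.13 between the M libraries and -1.85 between the FM libraries. For Lrp1 it was 1.30 between the M libraries and -0.87 between the FM libraries. With 1 library per group and title start the difference between the starts was not tested. Over all tested genes the median of the same difference was -1.01 for start M and -2.48 for start FM, and both genes lay above it in both starts.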

How the results depend on the processing

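Of the 13 alternatives, Gas6 kept its call in 10, Pros1 in 8 and Mfge8 in 7, and their signs in all 13. Axl was called in 0 of 13 and turned to -0.79 without YFP+ M and -0.92 without YFP- M. It was at 1.20 without YFP- FM and reached 2.43 under median-ratio scaling. Lrp1 turned to -0.68 without YFP- M, was at 1.11 without YFP- FM and reached 2.48 under median-ratio scaling, where it was called. Mertk turned to 0.30 under median-ratio scaling. Tyro3, below 1 TPM in every library, entered a test only without the filter (-0.63, adjusted p = 0.00896). In that fit 28.7% of all genes fell. Libraries of the same title start did not deviate together (correlation across genes -0.01) and share only that start. With the title start as replicate block, Gas6 (adjusted p = 0.0173) and Pros1 (0.0288) kept their calls and Mfge8 (0.0726) did not, and 23 genes rose and 1726 fell, of the other clearance genes 2 and 3. Members called higher numbered 1 under median-ratio scaling. Members called lower numbered 1 under quantile normalization, 0 under loess and 0 to 4 with a library left out, where at an unadjusted p under 0.05 the loess fit had 2402 genes. Genes called higher numbered 148 under quantile normalization, 689 under median-ratio scaling, 115 with FPKM and 12 to 71 with a library left out. Genes called lower numbered 3078 with a pseudocount of 0.1, 2902 with a filter at 5 TPM, 205 under quantile normalization, 723 under median-ratio scaling, 40 under loess and 24 to 8280 with a library left out. Of the other clearance genes, 4 rose with a pseudocount of 0.1 and 4 without a filter, 2 rose and 2 fell under quantile normalization, 15 and 5 under median-ratio scaling and 0 and 0 under loess. With a library left out 0 to 7 rose and 0 to 33 fell. There the group left with 1 library is assumed to vary like the other. The causes of these shifts were not tested. On the deposited TPM limma gave its variance trend full weight, so each p, SE and interval rests on the spread typical of genes of that level.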
